A study of Mus musculus with 8 samples.

Results

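Genes that carry out the work of macrophages and granulocytes were followed in mouse hemogenic endothelium cultured without and with induction of Runx1. The set holds 39 genes, listed by name with earlier results of these data known: receptors for antibody, sugars and debris, their signalling partners, complement C1q, proteins of the lysosome and phagosome, 1 transcription factor, and the contents of neutrophil and eosinophil granules. A probe was found for 38 of them, all but the fungal sugar receptor gene Clec7a, among 20145 genes with a probe. Of these 38, 22 had a probe that the scanner software called well above background on all 3 arrays of at least 1 group and were tested, among 14503 genes tested in all. The other 16 are described by their values only.

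The cells were iRUNX1 cells of strain C57BL/6, per the labels, in which doxycycline switches on Runx1 through a Tet-on system. Stem cells were left to form embryoid bodies over 3.25 days, cells bearing the VEGF receptor Flk-1 (Flk-1+) were isolated, grown and isolated again, and these were kept for 2 days as hemogenic endothelium, the endothelium that gives rise to blood cells. Cells labelled DOX+ ("Runx1 expression") received doxycycline overnight at 0.3 µl/ml, the unit the labels use, and cells labelled DOX- ("control") did not. Both groups had 3 biological replicates, and 1 further array per group, a technical repeat, entered only 1 alternative fit. The labels name 1 line and give no number of clones, and do not say whether its own Runx1 gene is intact. Cells that lack the inducible gene but received doxycycline were not analysed here. Each difference is therefore one between cells with and without doxycycline. The p-values measure the spread between these arrays.

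All values are log2 processed signals relative to the 75th percentile of the same array, and a difference is DOX+ minus DOX-. That percentile was 338 to 699 on the DOX- arrays and 543 to 973 on the DOX+ arrays, and 55.6% to 70.4% of spots were well above background. Scaled to spiked-in control RNA instead, every difference would be higher by 1.29 (1.17, 0.80 and 1.91 in the pairs of replicates 1, 2 and 3, and 0.14 in the technical repeats), so differences are relative to the signal of the array as a whole. All 12 endothelial marker genes on a list that includes Cdh5, Pecam1 and Kdr were well above background on all 6 arrays, and 3 of them (0 to 2 with 1 array left out, and 0 without either array of replicate 2 or the DOX- array of replicate 3) fell, Eng, Tek and Sox17, of which Eng and Tek lie above 0 with spike-in scaling. The tested probe of Runx1 itself read -4.71, -4.72 and -4.28 on the DOX- arrays and -6.14, -5.71 and -4.95 on the DOX+ arrays. All of these DOX+ values were lower (difference -1.03, adjusted p 0.126, or 0.0214 with replicate number in the fit as a block). No source used here says whether that probe lies in the inducible copy, so it checks nothing about the labels, and each direction rests on the labels alone. In the linear model fitted over all genes with limma, 601 genes (4.14%) rose and 314 (2.17%) fell, 6.31% in all, at a Benjamini-Hochberg adjusted p under 0.05. With 1 array left out, 358 (without the DOX- array of replicate 2) to 822 genes passed.

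Macrophages and granulocytes take up particles through surface receptors, kill and digest them in phagosomes that fuse with lysosomes, and, in granulocytes, store proteases and antimicrobial proteins in granules. Fc receptors bind the constant part of antibodies and depend on small membrane adaptors such as the Fc receptor gamma chain (Fcer1g) and DAP12 (Tyrobp), which carry the signal into the cell. Runx1 and the ETS family factor PU.1 are known regulators of myeloid genes, and hemogenic endothelium that turns into blood is known to yield early macrophage and granulocyte precursors.

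More of the 38 effector genes were well above background on the DOX+ arrays. Replicates 1, 2 and 3 gave 24, 19 and 18 on their DOX- arrays and 31, 25 and 23 on their DOX+ arrays. The technical repeats gave 19 and 25. In each replicate the DOX+ array held more, although the groups overlap, since the DOX- array of replicate 1 exceeded the DOX+ array of replicate 3. The share of all spots well above background moved the same way, from 64.8%, 61.8% and 55.6% to 70.4%, 62.0% and 61.3%, and its part in these counts was not tested. The genes of the high-affinity IgE receptor chain Fcer1a, the complement chains C1qa and C1qc, the granule protein Ngp, the eosinophil ribonuclease Ear2 and the eosinophil peroxidase Epx were the 6 members that reached no such signal on any of the 6 arrays.

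**Figure D1:**
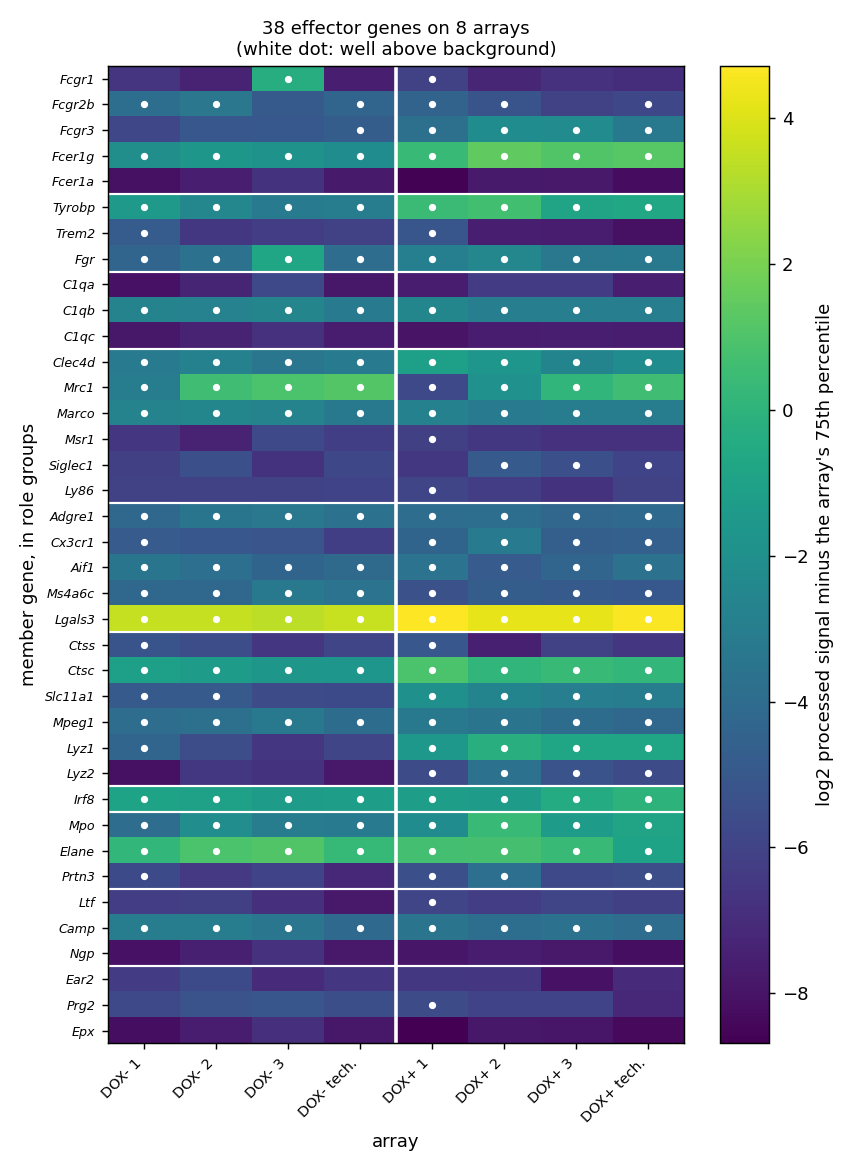
Log2 processed signal of 38 effector genes (rows, in groups by role) on 8 arrays (columns, DOX- left and DOX+ right of the white line), relative to the 75th percentile of the array, with a white dot where the probe was well above background. Dots number 18 to 24 on the DOX- arrays of replicates 1 to 3 and 23 to 31 on the DOX+ arrays. Fcer1g, Ctsc, Slc11a1 and Lyz1 are brighter on every DOX+ array.

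Of the 22 tested effector genes, 6 rose, 0 fell and 16 did not pass in limma. The 6 were the Fc receptor chains Fcer1g and Fcgr3, the lysosome and phagosome genes Lyz1, Slc11a1 and Ctsc, and the galectin gene Lgals3. They make up 27.3% of the members tested, against 4.14% of all genes that rose, a description only, since the list was made with earlier results known. At an unadjusted p under 0.05, 11 members were higher and 2 lower, against 13.9% and 7.77% of all genes. Leaving out 1 array gave 3 that rose (without the DOX- array of replicate 2) to 6. The median difference of the 22 was 0.49, against 0.09 for all genes tested, and 0.38 (without the DOX+ array of replicate 2) to 0.83 (without the DOX- array of replicate 3) with 1 array left out. Of the 22, 14 had a difference above 0, against 59% of all genes. Every DOX+ array lay above every DOX- array for 10 members and below for 3, against 19.6% and 8.71% of all genes. The technical repeat pair, left out of the test, differed in the same direction for all 6 genes that rose and for 11 of the 16 that did not pass. These arrays repeat existing samples, and the labels do not say which, so this is no separate support.

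These counts depended on the filter, the fit and the scaling. Fcgr3, Cx3cr1, Slc11a1, Lyz1 and Lyz2 were tested only because their DOX+ arrays were bright, so the filter favoured a rise in them. Requiring a signal well above background on all 6 arrays left 17 members, of which 3 rose (Fcer1g, Ctsc and Lgals3) and 0 fell, against 3.22% and 2.08% of 13490 genes, and at an unadjusted p under 0.05 6 were higher and 2 lower, against 13.3% and 7.91%. The median of these 17 was 0.04, below the 0.08 of all 13490 genes, and with no filter it was -0.04 for the 38 members and -0.02 for all genes. Same-numbered arrays of the groups deviated together. Once replicate number entered the fit as a block, 10 members rose and 2 fell, against 9.37% and 6.81% of all genes. Tyrobp, Clec4d, Lyz2 and Mpo joined those that rose, and Mrc1 and Ms4a6c were those that fell. Mrc1 passed in no other fit. Ms4a6c passed otherwise only with the technical repeats, a fit whose p-values are too small because it counts a repeat as another sample. Tyrobp, Clec4d and Lyz2 each passed in at least 1 fit without the block, the repeats or spike-in scaling. Outside the block and the repeats, Mpo passed only with spike-in scaling, which raises every difference by 1.29. With normexp, a background correction whose offset pulls dim values together, 5 members rose and 0 fell, against 2.9% and 1.86% of all genes, and the members' median was -0.03, against 0.04 for all genes. With spike-in scaling 9 rose and 0 fell, against 4.71% and 0.0276%, and the median was 1.78, against 1.38 for all genes.

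Among the 5 Fc receptor genes, 2 were tested and both rose, against 4.14% of all genes. Of these 2, Fcgr3 was tested only through bright DOX+ arrays, which favours a rise. Fcer1g, the gamma chain shared by activating Fc receptors, read -2.04, -1.58 and -1.87 on the DOX- arrays and 0.41, 1.42 and 1.06 on the DOX+ arrays (here and below in the order of replicates 1, 2 and 3). All 3 DOX+ arrays lay above all 3 DOX- arrays, and the technical repeats, at -2.16 and 1.25, were apart in the same way. It rose by 2.79 (SE 0.28), 6.94-fold (adjusted p 0.00373), and by 2.29 on normexp values.

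Fcgr3, which encodes the low-affinity IgG receptor CD16, read -5.85, -5.04 and -5.02 on the DOX- arrays, none of them well above background, and -3.74, -2.15 and -2.24 on the DOX+ arrays, all well above it. The DOX+ array of replicate 1 was the lowest of its group and still above every DOX- array. It rose by 2.59 (adjusted p 0.0262), from DOX- values that are uncertain. Its floored fold was 5.63. That fold sets each DOX- array at the higher of the probe's own signal and the array's lowest signal well above background. It is no strict lower limit. The DOX- values of replicates 1 and 2 lay above those lowest signals, -5.96 and -5.45, and were still not well above background. The technical repeats, at -4.72 and -3.28, were both well above background and differed by 1.45, less than any replicate pair. With normexp the difference was 0.59 and did not pass (adjusted p 0.313), and in fits with 1 array left out it passed in 1 of 6. Fcgr3 is similar in sequence to other low-affinity Fc receptor genes, so its probe could share signal with them, which was not tested.

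The other 3 Fc receptor genes were not tested. Fcgr2b, the inhibitory IgG receptor, read -3.82, -3.38 and -4.91 on the DOX- arrays and -4.40, -5.19 and -6.09 on the DOX+ arrays, with 2 arrays of each group well above background and overlapping groups. The difference was below 0 in each of the 3 pairs, at -0.57, -1.81 and -1.18. Fcgr1, the high-affinity IgG receptor, was well above background on 1 array of each group, and Fcer1a on none. Fcer1g and Fcer1a also belong to the IgE receptor of mast cells and basophils. Of 12 mast cell and basophil markers 7 were tested and 2 rose, the protease genes Mcpt8 and Mcpt4. The summed linear signal of the list, relative to the 75th percentile, was 4.34 to 6.43 on DOX- and 10.5 to 14.4 on DOX+ arrays. Kit, which is on the early blood list too, and Gata2 enter this sum. On the DOX+ array of replicate 3 they read 2.49 and 2.36 (log2), against 0.90 for Mcpt8 and -0.39 for Mcpt4. On that of replicate 1 they read -0.20 and 1.67, against 1.67 and 1.13. Gata2, Kit, Mitf, Hdc and Tpsb2 were well above background on all 6 arrays and did not pass with group alone. Gata2 was higher with an adjusted p of 0.0335 under the replicate block. Mcpt8 and Mcpt4 were well above background on 1 DOX- and 3 DOX+ arrays, Cpa3 and Il1rl1 on 1 DOX+ array each, and Cma1 and Ms4a2 on 0. The part of such cells in the Fcer1g difference was not tested. In RNA from a whole culture, more cells of a type and more RNA per cell cannot be told apart.

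None of the signalling genes passed in limma with group alone on processed signals, although Tyrobp came close. Tyrobp, the adaptor DAP12 that pairs with activating receptors such as Trem2, read -1.45, -2.46 and -3.22 on the DOX- arrays and 0.45, 0.67 and -0.83 on the DOX+ arrays. Replicate 3 was lowest in both groups, and the groups did not overlap. It differed by 2.47 (SE 0.55). Its adjusted p was 0.0513 in limma, 0.00512 under the replicate block and 0.0353 on normexp values.

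Fgr, a Src family kinase of phagocytes, read -4.31, -3.70 and -0.83 on the DOX- arrays and -2.90, -2.49 and -3.33 on the DOX+ arrays. The DOX- array of replicate 3 stood apart from the other 2 of its group and lay above all DOX+ arrays. The difference of 0.04 (SE 0.86, adjusted p 0.980) rests on that array: without it the difference was 1.10 and did not pass either, and the technical repeats differed by 0.67. Trem2, a lipid receptor of macrophages, was well above background on 1 array of each group, both of replicate 1.

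Complement C1q, which tags debris and immune complexes and is made mainly by macrophages, showed no change that passed. Its 3 chain genes lie on chromosome 4. C1qb read -2.69, -2.75 and -2.60 on the DOX- arrays and -2.53, -2.94 and -2.94 on the DOX+ arrays, so the groups overlapped. The difference was -0.12 (SE 0.17, adjusted p 0.696) and its sign was positive with quantile normalization, median centring and spike-in scaling. The other 2 chains, C1qa and C1qc, reached no such signal.

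Of the 7 pattern and scavenger receptor genes, 3 were tested and none passed with group alone on processed signals. Clec4d, a C-type lectin that signals through the gamma chain, read -3.08, -2.81 and -3.42 on the DOX- arrays and -1.12, -1.64 and -2.66 on the DOX+ arrays. The groups did not overlap, though the DOX+ array of replicate 3 lay close to the DOX- range. The difference was 1.30 (SE 0.40) and its adjusted p was 0.124, or 0.0280 once the replicate block was included, 0.0246 with spike-in scaling and 0.0328 without the DOX+ array of replicate 3.

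Mrc1, the mannose receptor of tissue macrophages and also of some endothelium, read -3.08, 0.61 and 0.91 on the DOX- arrays and -5.73, -1.89 and 0.15 on the DOX+ arrays. Replicate 1 was far lower than the others in both groups, and the DOX+ array was the lower one in each of the 3 pairs and in the technical repeats, at 1.14 and 0.58. The difference of -1.97 (SE 1.67) missed the threshold (adjusted p 0.516) and passed (0.0320) under the replicate block, which takes out the level of each replicate. It was -0.68 with spike-in scaling. With 1 array left out it ran from -3.29 (without the DOX+ array of replicate 3) to -0.35 (without the DOX+ array of replicate 1) and never passed.

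Marco, a class A scavenger receptor, read -2.71, -2.55 and -2.67 on the DOX- arrays and -2.79, -3.09 and -3.01 on the DOX+ arrays. All DOX+ arrays lay below all DOX- arrays, by a small margin, while the technical repeats differed the other way, by 0.24. Its difference of -0.32 (SE 0.15, adjusted p 0.273) turned to 0.97 with spike-in scaling. The scavenger receptor gene Msr1 was well above background on 1 DOX+ array, the sialic acid receptor gene Siglec1 on 2, and Ly86, which encodes a partner protein of a Toll-like receptor relative, on 1. None of these 3 was so on a DOX- array.

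Of the 5 macrophage surface and cytoplasmic markers, all tested, 1 rose. Lgals3, which encodes galectin-3, a sugar-binding protein of macrophages that many other cells also make, read 3.56, 3.53 and 3.37 on the DOX- arrays and 4.72, 4.19 and 4.23 on the DOX+ arrays. It rose by 0.89 (SE 0.19), 1.86-fold (adjusted p 0.0419). The groups did not overlap, and the technical repeats, at 3.57 and 4.66, were apart in the same way. The call was close to the threshold: it passed in 0 of the 6 fits with 1 array left out, where the difference was 0.72 to 0.98.

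Cx3cr1, the fractalkine receptor of monocytes and microglia, read -4.83, -5.04 and -5.16 on the DOX- arrays, of which 1 was well above background, and -4.36, -3.21 and -4.63 on the DOX+ arrays. The groups did not overlap, but the difference of 0.94 (SE 0.37, adjusted p 0.203) did not pass. It was -0.04 with normexp, and another Cx3cr1 probe, not well above background on any array, differed by -0.63.

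Ms4a6c, a membrane protein gene of monocytes, read -4.15, -4.14 and -3.27 on the DOX- arrays and -5.35, -4.74 and -4.88 on the DOX+ arrays. It was lower on every DOX+ array and in the technical repeats, at -3.58 and -4.99. The difference was -1.14 (SE 0.30, adjusted p 0.0797, 0.0276 under the replicate block) and turned to 0.15 with spike-in scaling.

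The classical macrophage marker Adgre1, a surface receptor of the adhesion family, read -4.19, -3.46 and -3.31 on the DOX- arrays and -3.92, -3.83 and -4.26 on the DOX+ arrays, a difference of -0.35 (SE 0.26, adjusted p 0.471). Aif1, the actin-binding protein Iba1, differed by -0.38 (SE 0.37, adjusted p 0.575), with DOX- values from -4.35 to -3.47 and DOX+ values from -4.86 to -3.58. Both genes had overlapping groups, and both differences were above 0 with spike-in scaling, at 0.94 and 0.91.

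**Figure D2:**
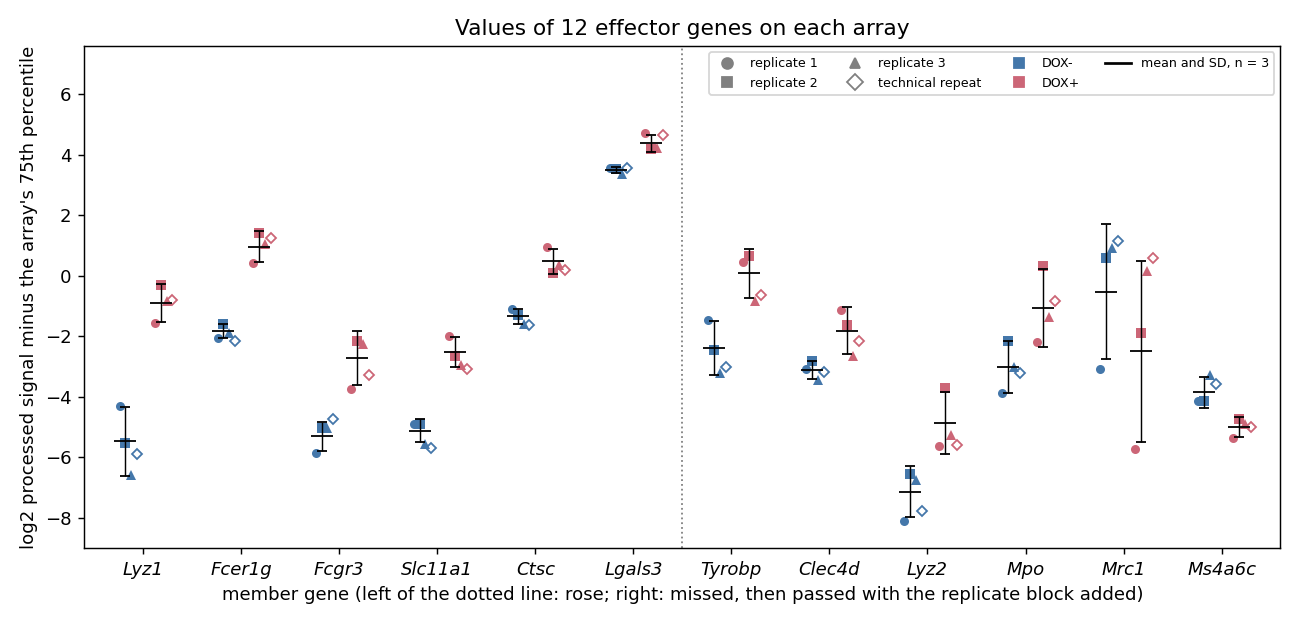
Log2 processed signal relative to the 75th percentile of the array for 12 effector genes, by array: blue DOX-, red DOX+, symbols for replicates 1 to 3, open diamonds for the technical repeats, bars for the mean and SD (n = 3). Left of the dotted line are the 6 genes that rose, whose groups do not overlap. Right of it are 6 that missed the threshold and passed once the replicate block was added, among which Mpo and Mrc1 have overlapping groups.

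Of the 6 lysosome and phagosome genes 5 were tested and 3 rose, against 4.14% of all genes. Lyz1, Lyz2 and Slc11a1 were tested only through bright DOX+ arrays, which favours a rise. Where all 6 arrays had to be well above background, Ctsc was the only gene of this group that rose. Lyz1 and Lyz2 encode the lysozymes that cut bacterial cell walls. Lyz1 read -4.30, -5.53 and -6.58 on the DOX- arrays, of which only that of replicate 1 was well above background, and -1.55, -0.30 and -0.82 on the DOX+ arrays. Replicate 1 was the highest DOX- and the lowest DOX+ array, and a wide gap still lay between the groups. Its rise of 4.58 (SE 0.60, adjusted p 0.00857) was the largest among the members on processed signals, though it rests on 2 DOX- arrays not well above background. With normexp it was 1.89 (adjusted p 0.00826), below the 2.29 of Fcer1g.

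Lyz2, the form used to mark macrophages and granulocytes, read -8.11, -6.53 and -6.74 on the DOX- arrays, none well above background, and -5.63, -3.69 and -5.24 on the DOX+ arrays, all well above it. Every DOX+ array was the higher one, and the floored fold was 1.44. Its adjusted p was 0.0885, 0.00808 under the replicate block and 0.0476 with quantile normalization, and on normexp values the difference was -0.02. The genes are near-identical neighbours on chromosome 10, so each probe could take up RNA of the other, which was not tested, and the split between them is uncertain.

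The promoters of both genes are shown because the genes are close copies. Both were well above background on all 3 DOX+ arrays, and on 1 (Lyz1) and 0 (Lyz2) DOX- arrays. Each line gives the 250 bases before the RefSeq start (GRCm38.p6), 5′ to 3′ on the strand of the gene, at chr10:117292869-117293118 (minus strand) for Lyz1 and chr10:117282273-117282522 (minus strand) for Lyz2. Capitals mark a match to the string TGTGGT, a form of the RUNX core, or GAGGAA, a form of the ETS core, on either strand. Other forms of these cores were not searched.
Lyz1: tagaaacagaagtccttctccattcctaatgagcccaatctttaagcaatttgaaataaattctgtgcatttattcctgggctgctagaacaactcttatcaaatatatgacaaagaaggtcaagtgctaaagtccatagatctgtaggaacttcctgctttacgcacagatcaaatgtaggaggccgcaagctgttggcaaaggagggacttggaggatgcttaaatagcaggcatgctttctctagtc
Lyz2: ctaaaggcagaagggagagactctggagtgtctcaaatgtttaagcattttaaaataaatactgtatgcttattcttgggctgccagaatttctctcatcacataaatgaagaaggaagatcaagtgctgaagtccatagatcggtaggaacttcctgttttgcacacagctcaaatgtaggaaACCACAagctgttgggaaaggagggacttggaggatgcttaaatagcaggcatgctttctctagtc
Over 248 aligned bases 200 (80.6%) were identical, and 59 of the last 60 before the start. Lyz2 held TGTGGT, on the minus strand as ACCACA with its first base at -66, and Lyz1 held neither of these strings in this window.

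Slc11a1, the phagosome metal transporter Nramp1 that starves engulfed microbes of iron and manganese, read -4.89, -4.89 and -5.56 on the DOX- arrays, 2 of them well above background, and -1.98, -2.66 and -2.93 on the DOX+ arrays. The technical repeats, at -5.69 and -3.07, showed the same gap. It rose by 2.59 (SE 0.31, adjusted p 0.00638) and passed in all 6 fits with 1 array left out. With normexp the difference was 0.78 and did not pass (adjusted p 0.0861).

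Ctsc, cathepsin C, which activates the serine proteases of granules, read -1.11, -1.29 and -1.59 on the DOX- arrays and 0.94, 0.11 and 0.37 on the DOX+ arrays. All 6 arrays were well above background and the groups were apart. It rose by 1.81 (SE 0.25), 3.495-fold (adjusted p 0.0114), and by 1.51 on normexp values. It missed the threshold without the DOX- array of replicate 2 (adjusted p 0.0510). Mpeg1, the pore-forming perforin-2, differed by 0.04 (SE 0.24, adjusted p 0.933), with DOX- values from -3.88 to -3.24 and DOX+ values from -3.93 to -3.27. Ctss, the protease cathepsin S that prepares antigen, was well above background on 1 array of each group, both of replicate 1, and was not tested.

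The promoters of 3 further genes that rose are shown, since these held GAGGAA. That string is a form of the ETS core, the DNA motif that PU.1 and its relatives bind. They are 250 bases before the RefSeq start (GRCm38.p6), 5′ to 3′ on the strand of the gene, at chr1:171059404-171059653 (minus strand) for Fcgr3, chr1:74374953-74375202 (plus strand) for Slc11a1 and chr7:88277835-88278084 (plus strand) for Ctsc. Capitals mark GAGGAA on either strand, so TTCCTC is a match on the opposite strand.
Fcgr3: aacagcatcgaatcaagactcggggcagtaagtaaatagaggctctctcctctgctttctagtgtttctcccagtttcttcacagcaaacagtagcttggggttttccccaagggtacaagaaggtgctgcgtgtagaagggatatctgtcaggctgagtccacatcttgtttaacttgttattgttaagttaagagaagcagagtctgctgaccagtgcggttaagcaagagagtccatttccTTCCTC
Slc11a1: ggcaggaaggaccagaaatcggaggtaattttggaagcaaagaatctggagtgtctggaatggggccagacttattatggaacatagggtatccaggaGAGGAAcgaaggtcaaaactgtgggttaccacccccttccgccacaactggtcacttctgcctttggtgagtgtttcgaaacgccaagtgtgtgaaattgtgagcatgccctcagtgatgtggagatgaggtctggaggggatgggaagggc
Ctsc: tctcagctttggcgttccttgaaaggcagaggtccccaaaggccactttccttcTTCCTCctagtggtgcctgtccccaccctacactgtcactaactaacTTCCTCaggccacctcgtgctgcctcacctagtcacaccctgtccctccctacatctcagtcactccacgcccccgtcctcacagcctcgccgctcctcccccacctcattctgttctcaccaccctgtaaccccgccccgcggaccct
Among 33 members found in the RefSeq promoter table, 19 had GAGGAA within 250 bases before to 50 after a start, against 31.3% of the 27025 genes in the table, and 6 had TGTGGT, against 18.9%. Neither motif contains the other. Of the 6 genes that rose, 3 held GAGGAA and 1, Fcer1g at base 10 after the start, held TGTGGT. Only these strings were searched, so the TGCGGT in the Fcgr3 window is neither marked nor counted. A match is a string of letters in this window and does not show binding.

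Irf8, a transcription factor that steers progenitors to monocytes, read -0.90, -0.99 and -1.27 on the DOX- arrays and -1.17, -1.27 and -0.46 on the DOX+ arrays. The groups overlapped, the pairs differed in sign, and the difference was 0.09 (SE 0.25, adjusted p 0.857). The technical repeats, at -1.19 and -0.04, differed by 1.15, more than any of the 3 pairs.

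Of the 9 granule genes, 3 were tested and none passed with group alone on processed signals. Mpo, the myeloperoxidase of primary granules, read -3.87, -2.14 and -3.03 on the DOX- arrays and -2.19, 0.33 and -1.34 on the DOX+ arrays. Replicate 2 was highest and replicate 1 lowest in both groups, so that the groups overlapped while the DOX+ array was higher in each of the 3 pairs, by 1.68, 2.47 and 1.68. The estimate of 1.94 (SE 0.70) missed the threshold (adjusted p 0.179) and passed it under the replicate block (0.00530) and with spike-in scaling (0.00169).

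Elane, neutrophil elastase, is stored in the same granules as Mpo. It read 0.17, 0.94 and 1.10 on the DOX- arrays and 0.69, 0.75 and 0.38 on the DOX+ arrays, a difference of -0.13 (SE 0.27, adjusted p 0.798), above 0 with median centring and spike-in scaling. The related protease gene Prtn3 was well above background on 1 DOX- and 2 DOX+ arrays and was not tested. Its highest value, -3.77, came from the DOX+ array of replicate 2, where Mpo was highest too.

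Camp, which encodes the antimicrobial peptide cathelicidin of secondary granules, read -3.08, -3.002 and -3.41 on the DOX- arrays and -3.55, -3.87 and -3.69 on the DOX+ arrays. Its difference of -0.54 (SE 0.17) did not pass (adjusted p 0.138) and was 0.75 with spike-in scaling, and the technical repeats differed by 0.23. Ltf, the iron-binding lactoferrin, was well above background on 1 DOX+ array, and Ngp on none. The eosinophil genes Ear2 and Epx were well above background on no array and Prg2, the major basic protein, on 1 DOX+ array. Apart from Camp, the secondary and eosinophil granule genes gave little signal in either group.

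**Figure D3:**
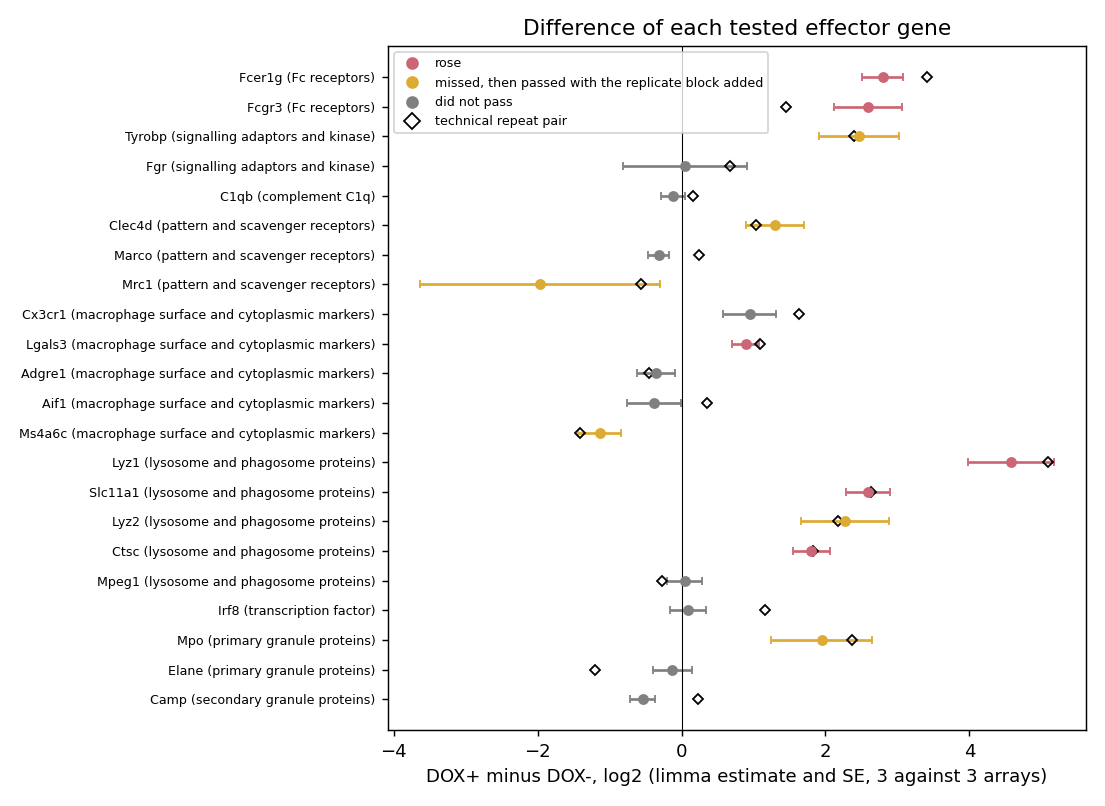
Difference (DOX+ minus DOX-, log2, limma estimate and SE, 3 against 3 arrays) of each of the 22 tested effector genes, in order of role, with the technical repeat pair as open diamonds. The 6 genes that rose (red) lie between 0.89 and 4.58, and 6 others (yellow) missed the threshold and passed once the replicate block was added. Spike-in scaling would move each estimate up by 1.29 and each diamond by 0.14, and of the 8 estimates below 0 only that of Mrc1 would stay there.

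The background correction mattered most for genes that were dim on the DOX- arrays. For the 5 members not well above background on all 3 DOX- arrays, the difference went from 4.58 to 1.89 (Lyz1), 2.59 to 0.59 (Fcgr3), 2.59 to 0.78 (Slc11a1), 2.27 to -0.02 (Lyz2) and 0.94 to -0.04 (Cx3cr1) when processed signals were replaced by normexp values. For genes measured on every array the change was smaller: 2.79 to 2.29 for Fcer1g, 2.47 to 1.82 for Tyrobp, 1.81 to 1.51 for Ctsc and 0.89 to 0.95 for Lgals3. The rises of Fcer1g, Ctsc, Lgals3 and Lyz1 passed under both corrections.

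**Figure D4:**
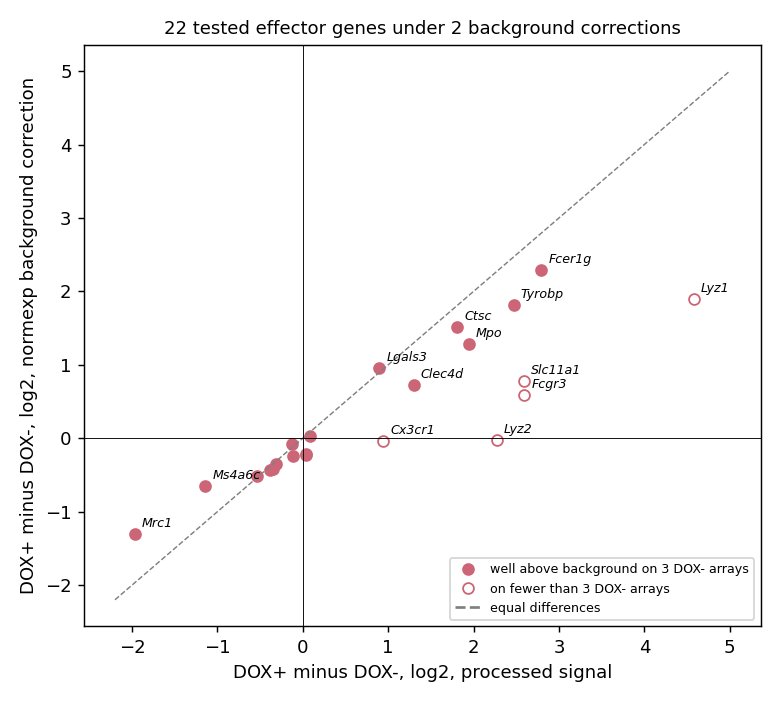
Difference of each of the 22 tested effector genes with the processed signal (horizontal) and with normexp background correction (vertical), both DOX+ minus DOX- on the log2 scale; the dashed line marks equal differences. Open circles are the 5 genes well above background on fewer than 3 DOX- arrays, and all 5 lie well below the line.

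Genes that act around the members were counted from lists, beside 4.14% of all genes that rose and 2.17% that fell. Of 22 myeloid regulators and growth factor receptors 19 were tested, 3 rose and 2 fell, with a median of -0.03. The granulocyte factor gene Cebpe, well above background on no DOX- array, rose with a floored fold of 6.996. Gfi1, a repressor needed for granulocytes, rose by 3.37 (SE 0.51, adjusted p 0.0145), and Cebpb, a C/EBP factor of macrophages, by 1.33 (SE 0.21, adjusted p 0.0149). The growth factor receptor of macrophages Csf1r fell by 1.33 (SE 0.24, adjusted p 0.0258), and Klf4, a factor of monocytes and endothelium, by 1.35 (SE 0.16, adjusted p 0.00603). With spike-in scaling, which raises each difference by 1.29, both stay only just below 0, so little of either fall remains. Cebpe did not pass on normexp values (0.89, adjusted p 0.145). Under the block the counts were 6 and 4. With 1 array left out, 1 (without either array of replicate 2) to 3 rose and 1 (without any DOX- array or the DOX+ array of replicate 1) to 2 fell.

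Of 50 other phagocyte genes 38 were tested, 11 rose and 0 fell in limma (16 and 2 at an unadjusted p under 0.05), with a median of 0.59. Of all genes 4.14% rose and 2.17% fell (13.9% and 7.77% unadjusted). Of these 38, 30 were well above background on all 3 DOX- arrays, and the others were tested only through bright DOX+ arrays. Under the block the counts were 18 and 3, on normexp values 7 and 0, and with 1 array left out 8 to 11 rose. The largest difference was that of the monocyte chemokine receptor gene Ccr2 (floored fold 7.31, well above background on no DOX- array). Next came the oxidase subunit gene Ncf1 (4.51, SE 0.30) and the inhibitory receptor gene Lilrb4a (3.47, SE 0.29). The chemokine gene Ccl9 (3.45, SE 0.51) and the leukocyte actin regulator Coro1a (3.43, SE 0.43) followed. Adjusted p of these genes ran from 0.00137 to 0.0127 in limma. Of these 5, Ccr2 did not pass on normexp values (1.16, adjusted p 0.0850). Of 22 other granulocyte granule genes 13 were tested, 4 rose and 1 fell, against the same shares of all genes. Mmp9, Siglecf and Ms4a3 were well above background on no DOX- array. They were tested only through bright DOX+ arrays, which favours a rise. The floored fold was 5.63 for Mmp9, a matrix protease, 4.34 for the eosinophil receptor gene Siglecf and 2.47 for the membrane protein gene Ms4a3. Ctsg, a primary granule protease, rose by 1.83 (SE 0.32, adjusted p 0.0234). Serpinb1a, an inhibitor of granule proteases, fell by 2.60 (SE 0.41, adjusted p 0.0162). On normexp values none of the 4 passed, at 0.75 for Mmp9, 0.45 for Siglecf, 0.28 for Ms4a3 and 0.73 for Ctsg. With the block 4 rose and 3 fell, and without either array of replicate 2 the counts were 2 and 0. There were also 2 that rose without the DOX- array of replicate 3 and 0 that fell without the DOX+ array of replicate 3.

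Some markers of other blood cells rose beside these genes. Of 9 early blood markers, all tested, 3 rose (Myb, Spn and Gfi1; 2 without either array of replicate 2 or the DOX+ array of replicate 3), and the summed signal of the list was 61.4 to 78.3 on DOX- and 56.6 to 106 on DOX+ arrays. Of 6 megakaryocyte markers 5 were tested and 1, Pf4, rose (0 when any array but the DOX- one of replicate 2 was left out), with a summed signal of 2.91 to 5.14 and 8.12 to 17.3. Endothelial markers summed to 83.1 to 208 on DOX- and 58.9 to 130 on DOX+ arrays, and 7 of the 12 fell with the replicate block. Of the tested red cell (5 genes), T and NK cell (3), B cell (2) and dendritic cell (2) markers, 0 rose and 0 fell in limma. At an unadjusted p under 0.05, 1 dendritic cell marker was higher and 1 lower. With the replicate block, where 9.37% of all genes rose and 6.81% fell, Pf4, Gp1ba and Gp9 of the megakaryocyte list rose. So did Mcpt8, Mcpt4 and Gata2 of the mast cell and basophil list. Under the block the same 3 early blood markers rose, the red cell marker Hbb-bh1 fell and the T and NK cell marker Il2rb rose. The part of these cells in the members' differences was not tested.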

How the data were processed

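Cy3-labelled total RNA was measured on 8 Agilent 1-colour arrays, which lay on 1 slide and were scanned once. Per the file headers, Feature Extraction 10.7.3.1 made the deposited processed and median signals, spot intensities on a linear scale, and the deposited 0 or 1 flags for background, saturation and outliers. Version 10.7.1.1 and limma stand in the submitters' processing notes. A table of log2 values made by the authors was deposited too, and no source used here gives its normalization. It rises with signal, and its columns had medians of 5.36 to 5.38. Only 2 of its 8 columns tracked the array they are named for and 6 tracked another, so it served as an alternative in both readings.

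Control and outlier spots were left out, and the log2 of each processed signal was taken relative to the 75th percentile of its array. Spots of a probe were averaged, and a probe counted as well above background where over 50% of its spots were. RefSeq accessions named genes through a table of GRCm38.p6 (26582 of 55681 probes had 1 symbol, 0 several, 29099 none). The brightest probe that was well above background on all 3 arrays of a group stood for its gene, which gave 14503 genes. The headers name mm9, so coordinates of promoters come from RefSeq alone.

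Groups and replicate numbers came from the titles. The test was that of limma 3.58.1 in R 4.3.3 (lmFit, eBayes), two-sided, group only, with Benjamini-Hochberg adjustment over all genes tested. Every SE and adjusted p is from this fit unless another is named. The fit was tested on simulated data. Deviations from the group means of same-numbered arrays correlated at 0.65, 0.45 and 0.43, so the numbers, which the labels give to both groups, were taken to pair the samples. A floored fold sets the DOX+ mean against, per DOX- array, the higher of the probe's own signal and the lowest one well above background. It is no strict lower limit, since a probe above that lowest signal can still fail to be well above background. The files held no mean signal, so normexp used the median signal, with an offset of 50. Spike-in scaling used the 4 brightest E1A control probes. With 3 arrays per group their number limits the precision.

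The members and all lists, of regulators, phagocyte and granule genes and of cell markers, were chosen with earlier results of these data known. All 39 members are named, and of other lists at most the 5 largest called changes in each direction. Alternatives were another background correction, scaling, filter and probe rule, the replicate block, the deposited table, the technical repeats and each array left out. The slide row as a block was added after seeing the data. A block on the slide could not be fitted.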

Additional observations from a re-analysis of the deposited data

How the results depend on the processing

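No tested member of the 39 changed its call between the fits with and without the replicate block except the 6 named with it, and the block took the genes past the threshold from 915 to 2346, the members that rose from 6 to 10 and those that fell from 0 to 2. With 1 array left out, the genes past the threshold numbered 358 (without the DOX- array of replicate 2) to 822, the members that rose 3 to 6, those that fell 0 and the members' median was 0.38 to 0.83. Only Fcer1g, Lyz1 and Slc11a1 passed without that array of replicate 2. Over those fits Elane ranged from -0.42 to 0.049, Fgr from -0.64 to 1.10, Irf8 from -0.17 to 0.24 and Mpeg1 from -0.11 to 0.23. Without a filter 534 genes passed, among them 4 members, and the members' median was -0.040, against -0.020 for all genes. When all 6 arrays had to be well above background it was 0.041, against 0.082 for all genes, and 3 members rose.

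Normexp gave a median of -0.031 and turned Cx3cr1 (-0.038), Fgr (-0.23), Lyz2 (-0.024) and Mpeg1 (-0.21). Quantile normalization turned C1qb (0.0039). Centring on the median put all genes at a median of 0.25, took the members' median to 0.65 and the share of calls that rose from 65.7% to 76.9%, and turned C1qb (0.037) and Elane (0.026). Spike-in scaling moved them to 1.38, 1.78 and 99.4%, and turned Adgre1 (0.94), Aif1 (0.91), C1qb (1.17), Camp (0.75), Elane (1.16), Marco (0.97) and Ms4a6c (0.15). The technical repeats gave 1600 genes, 10 members that rose, 1 that fell and a median of 0.65, and turned Mpeg1 (-0.037). That fit counts a repeat of an existing sample as another sample in each group, so its p-values are too small and its further calls no gain in replication. The deposited table gave 0 genes past the threshold in limma when read by column name (134 up and 90 down at an unadjusted p under 0.05), 0 members that rose and a median of -0.014. It turned Adgre1 (0.083), Clec4d (-0.040), Ctsc (-0.25), Elane (0.069), Fgr (-0.64), Lgals3 (-0.079), Mpeg1 (-0.18), Mrc1 (2.07), Ms4a6c (0.12), Slc11a1 (-0.37) and Tyrobp (-0.065). In that reading most columns stand for another array. Read by the array each column tracked, 7 members rose, and only C1qb turned (0.040). With the slide row as a block 8 members rose and 0 fell (2 at an unadjusted p under 0.05). Replicates 1 and 2 lay in row 1 and replicate 3 in row 2, and the 6 genes that rose were higher in each pair, by 0.66 (Lgals3) to 5.76 (Lyz1). The cause of these changes was not tested.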

Other observations

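The probe of Fcgr1, the high-affinity IgG receptor gene, was bright on a single array. Its processed signal was 268 on the DOX- array of replicate 3 and 2.28 to 15.0 on the other 7 arrays, technical repeats included. On the log2 scale it read -0.33 there and -7.54 to -6.02 elsewhere. The spot carried no outlier flag. The Fgr probe was highest on the same array, at a processed signal of 190, against 28.5 to 35.2 on the other 3 DOX- arrays. For both genes the DOX- technical repeat sided with the other DOX- arrays.

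Genes of granule proteases and their partners gave different values. Mpo was higher on the DOX+ array of each replicate while Elane was not, and the technical repeats differed by 2.37 for Mpo and -1.20 for Elane. Ctsc, which activates elastase and its relatives, rose, and so did Ctsg, another of its targets (not on normexp values), while Serpinb1a, an inhibitor of these proteases, fell. Whether these differences differ from each other was not tested.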
